A study of Mus musculus with 6 samples.

Results

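The transcriptional regulators of oxidative metabolism examined here were the PPAR family (Ppara, Ppard and Pparg), the ERR family (Esrra, Esrrb and Esrrg), the PGC-1 coactivators (Ppargc1a and Ppargc1b), the PPAR partner Rxra and the mitochondrial DNA factor Tfam. Their rows were found by gene symbol, with no threshold on a measured value, although the set was proposed with earlier results of these data known. All 10 were present among the 38293 genes of the deposited table, and all 10 passed the filter on low counts that left 14746 genes for testing.

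PPARs are nuclear receptors that bind fatty acids and related lipids and, paired with a retinoid X receptor such as the product of Rxra, activate genes of fatty acid uptake and oxidation. ERRs are orphan nuclear receptors of the same superfamily and act mainly on genes of the tricarboxylic acid cycle and of oxidative phosphorylation. PGC-1 proteins bind no DNA themselves but dock on PPARs, ERRs and other factors and strengthen their activity, and one of their downstream factors, TFAM, packages and transcribes mitochondrial DNA. In the adult heart, which burns mostly fatty acids, this network is known for setting mitochondrial capacity, and its fall is a well described feature of the failing heart.

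RNA was sequenced from heart tissue of 3 mice labelled WT and 3 mice labelled Zeb2 cKO, 14 days after permanent occlusion of the left anterior descending (LAD) coronary artery. All 6 were C57BL/6J (backcrossed) and, by the study's methods, adult. According to those methods, the controls carried the floxed Zeb2 allele without Cre (Zeb2 fl/fl), and in the Zeb2 cKO mice the same allele was combined with a Cre recombinase driven by the Myh6 promoter, so that the deletion was aimed at cardiomyocytes while the RNA came from all cells of the tissue. The labels place the tissue at the infarct border, the methods in the remote zone, and the group carries the name WT here as in the labels. No sham-operated hearts were among these libraries, so the values describe infarcted hearts of both genotypes and not a response to infarction. In such tissue, fewer cells of a type and less RNA per cell cannot be told apart.

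Libraries held 37288174 to 51136331 counts, of which 60.55 to 67.03% lay on mitochondrially encoded genes and at least 14301225 outside them. Zeb2, which codes for a zinc finger repressor that binds E-boxes, was at 61.3, 116.05 and 71.9 CPM (counts scaled to the TMM-normalized library size) in WT 1, 2 and 3, and Zeb2 cKO 1, 2 and 3 had 59.6, 72.6 and 66.5 CPM. Its log2 fold change (Zeb2 cKO over WT throughout) was -0.33 with a standard error of 0.25 (adjusted p = 0.957, edgeR), and -0.0063 without WT 2. The library WT 2 stood apart from the rest, with a median Spearman correlation across genes of 0.9438 with the other libraries, against 0.9872 to 0.9897 for the others. Its 12 cardiomyocyte markers summed to 36763 CPM, against 59526 to 72824 CPM in the other 5 libraries. Its 10 fibroblast markers summed to 9646 CPM (1691 to 2339 CPM elsewhere) and its 12 macrophage markers to 923 CPM (244 to 333 CPM elsewhere), while endothelial markers were at 512 CPM (618 to 730 CPM elsewhere). Cardiomyocyte markers were the most abundant of the marker lists in every library, as the tissue label implies. Since WT 2 is 1 of 3 control hearts, the fold change of each regulator is given with and without it.

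RefSeq windows (build GRCm38.p6) reached 250 bases upstream of the transcription start, with the first 50 transcribed bases added for the motif search. They were read for 9 of the regulators, all except Ppargc1b. The upstream parts are printed for 4 of them because 3, the fatty acid receptor Ppara, the coactivator Ppargc1a and the orphan receptor Esrra, hold the E-box letters that ZEB factors are known to bind, and Tfam holds the core bound by ETS factors such as NRF-2. They lie at chr15:85735526-85735775 (plus strand), chr5:51567726-51567975, chr19:6921809-6922058 and chr10:71238045-71238294 (minus strand), and are written 5′ to 3′ on the strand of the gene, with matches in capitals.
Ppara: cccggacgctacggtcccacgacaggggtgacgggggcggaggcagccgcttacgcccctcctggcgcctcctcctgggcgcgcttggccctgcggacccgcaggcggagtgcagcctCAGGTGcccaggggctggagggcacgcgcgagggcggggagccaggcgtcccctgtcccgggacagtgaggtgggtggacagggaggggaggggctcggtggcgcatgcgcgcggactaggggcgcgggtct
Ppargc1a: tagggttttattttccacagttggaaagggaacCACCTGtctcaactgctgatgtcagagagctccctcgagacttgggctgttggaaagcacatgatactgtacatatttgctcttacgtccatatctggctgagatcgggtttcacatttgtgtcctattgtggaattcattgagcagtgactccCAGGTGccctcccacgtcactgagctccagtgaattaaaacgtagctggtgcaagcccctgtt
Esrra: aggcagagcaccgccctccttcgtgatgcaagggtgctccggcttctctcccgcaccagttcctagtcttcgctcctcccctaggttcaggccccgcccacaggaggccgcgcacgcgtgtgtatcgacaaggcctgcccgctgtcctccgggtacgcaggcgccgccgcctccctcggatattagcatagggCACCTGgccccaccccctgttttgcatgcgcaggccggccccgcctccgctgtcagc
Tfam: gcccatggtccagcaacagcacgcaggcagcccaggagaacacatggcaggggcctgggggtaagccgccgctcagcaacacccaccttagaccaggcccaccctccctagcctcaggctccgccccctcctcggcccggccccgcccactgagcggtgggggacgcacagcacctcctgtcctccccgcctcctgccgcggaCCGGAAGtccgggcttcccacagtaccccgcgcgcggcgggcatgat
Matches were sought on both strands, so that an E-box reads CACCTG or CAGGTG. Of the 16 windows of the 9 regulators, 4 held it, in Ppara, Ppargc1a (2 matches), Esrra and 1 start of Pparg, beside 20.2% of all 32851 RefSeq windows of the same length. The nuclear receptor half-site AGGTCA occurred in 3 windows, of Rxra and Pparg (16.3% of all windows), and AAGGTCA, the longer form that contains it and that ERRs prefer, in 1, of Rxra (4.72%). The ETS core CCGGAAG occurred in the Tfam window alone among the 16 (8.86% of all windows). These matches describe letters in the windows, and no binding was measured here.

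For none of the 10 regulators did the difference between Zeb2 cKO and WT hearts pass a test. None reached an adjusted or an unadjusted p of 0.05 in edgeR's quasi-likelihood test, and in none did the 3 libraries of one group lie outside those of the other. Across all 14746 genes, 0.0% passed the adjusted threshold, 0.861% were lower and 1.04% were higher at an unadjusted p under 0.05, and in 2.97% (lower) and 3.39% (higher) the groups did not overlap. Adjusted p-values of the 10 ran from 0.957 to 0.992 and unadjusted ones from 0.414 to 0.915 (edgeR), and exact permutation p-values from 0.5 to 1, where 3 mice against 3 cannot go below 0.1.

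All 10 log2 fold changes were above 0, between 0.025 and 0.23 with a median of 0.092, whereas 48.6% of all genes tested were above 0. Each of the 10 was lowest in WT 2, which was the lowest library for 34.6% of all genes. Without WT 2, 1 of the 10 stayed above 0 (Ppard, 0.0092) and 9 fell below it, with a median of -0.095, and 50.8% of all genes were then above 0. No regulator passed an unadjusted p of 0.05 in that comparison either (smallest 0.1251, for Ppargc1a, edgeR; adjusted p = 0.99999 for all 10), where 1.04% of all genes were lower and 1.51% higher at that threshold. Both remaining WT hearts lay above all 3 Zeb2 cKO hearts for 2 of the 10, Ppargc1a and, narrowly, Esrra (30.29 CPM in WT 3 and 30.20 CPM in Zeb2 cKO 1). They lay below them for 0 of the 10, beside 7.46% (lower) and 8.07% (higher) of all genes. The shared sign of the 10 differences thus rested on 1 control heart, in which cardiomyocyte markers were also at their lowest. Leaving out Zeb2 cKO 1 put Ppara (-0.097) and Tfam (-0.014) below 0, and leaving out Zeb2 cKO 2 did so for Ppargc1a (-0.055) and Rxra (-0.033).

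**Figure D1:**
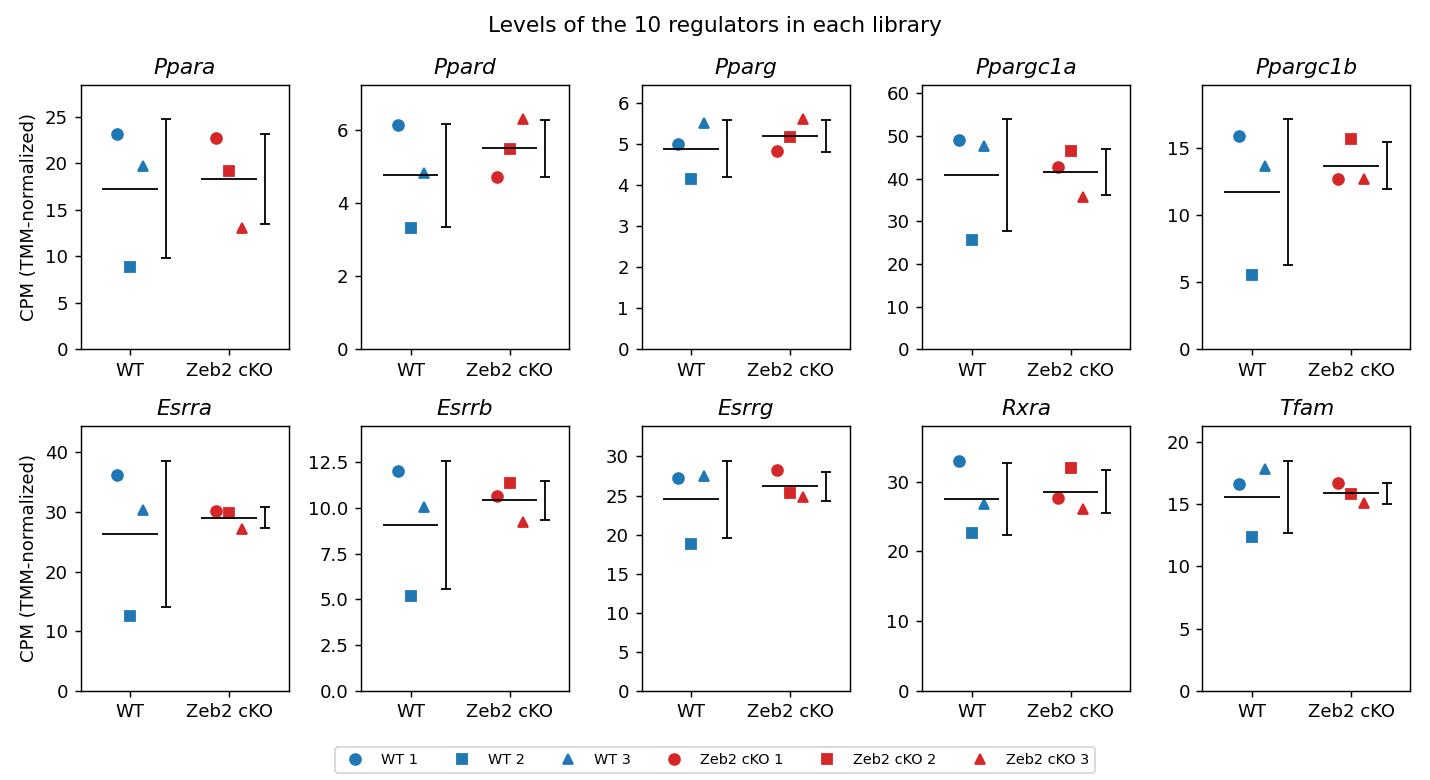
CPM (TMM-normalized, linear axis from 0) of the 10 regulators in each library; symbols mark the replicate, horizontal lines the group mean and vertical bars the mean ± SD of 3 mice. WT 2 (blue square) is the lowest point of every panel, at 37.7% of the mean of the other WT hearts for Ppargc1b and 78.9% for Pparg.

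Ppara, the PPAR of fatty acid oxidation in heart and liver (ENSMUSG00000022383, chr15:85734983-85802819, plus strand, GRCm38 here and below), was at 23.2, 8.89 and 19.7 CPM in WT 1, 2 and 3, and Zeb2 cKO 1, 2 and 3 had 22.7, 19.2 and 13.1 CPM. The spread within each genotype (17.3 ± 7.45 and 18.3 ± 4.87 CPM, SD, n = 3) exceeded the distance between the means. Its log2 fold change was 0.09 (standard error 0.37), with a 95% interval of -0.78 to 0.96, so changes within that range were not excluded at this number of mice. Zeb2 cKO 3 had the second lowest level, and without WT 2 the log2 fold change was -0.23.

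Ppard, the widely expressed PPAR, which also drives fatty acid oxidation in muscle (ENSMUSG00000002250, chr17:28232700-28301474, plus strand), was at 6.13, 3.33 and 4.82 CPM in WT and 4.72, 5.48 and 6.29 CPM in Zeb2 cKO hearts. WT and Zeb2 cKO means were 4.76 ± 1.40 and 5.50 ± 0.787 CPM (SD, n = 3), and the log2 fold change was 0.21 (standard error 0.24, 95% interval -0.36 to 0.78). It was the regulator whose value came closest to 0 without WT 2, and its libraries overlapped throughout.

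Pparg, the master regulator of fat cells (ENSMUSG00000000440, chr6:115360951-115490399, plus strand), was at 4.99, 4.15 and 5.52 CPM in WT and 4.84, 5.16 and 5.60 CPM in Zeb2 cKO hearts. It varied least of all 10 within the WT group (4.89 ± 0.693 against 5.20 ± 0.384 CPM, SD, n = 3). The log2 fold change was 0.09 (standard error 0.15, 95% interval -0.28 to 0.46), and -0.012 without WT 2. Because Pparg marks adipocytes, their markers were read beside it. Adipoq, the adipokine gene, had 3, 2 and 5 counts in WT and 25, 8 and 9 counts in Zeb2 cKO hearts, Lep had at most 1 count in a library, and Ucp1, the marker of brown fat, at most 1. Of the 11 adipocyte markers 3 had enough counts for the test, with 0 adjusted calls, and the summed level of all 11, carried almost entirely by Fabp4, which endothelial cells also express, was 125 to 178 CPM in WT and 163 to 217 CPM in Zeb2 cKO hearts. The part of fat cells in the Pparg level was not tested.

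Rxra, the retinoid X receptor that pairs with all 3 PPARs (ENSMUSG00000015846, chr2:27676440-27762957, plus strand), was at 33.0, 22.7 and 26.7 CPM in WT and 27.6, 32.0 and 26.0 CPM in Zeb2 cKO hearts. Group means were 27.5 ± 5.19 and 28.5 ± 3.10 CPM (SD, n = 3). Its log2 fold change was 0.05 (standard error 0.17, 95% interval -0.34 to 0.45), the groups overlapped, and without WT 2 the value was -0.064.

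Esrra, the ERR most tied to oxidative phosphorylation (ENSMUSG00000024955, chr19:6910977-6921813, minus strand), was at 36.2, 12.6 and 30.3 CPM in WT and 30.2, 29.9 and 27.1 CPM in Zeb2 cKO hearts. The Zeb2 cKO hearts were tightly grouped (29.1 ± 1.71 CPM, SD, n = 3), between WT 2 on one side and WT 1 and WT 3 on the other. Zeb2 cKO 1 was almost level with WT 3, however (30.2 and 30.3 CPM). The log2 fold change was 0.14 (standard error 0.35, 95% interval -0.69 to 0.98). Leaving out WT 2 gave a log2 fold change of -0.19 (95% interval -0.45 to 0.07, unadjusted p = 0.129, edgeR). Esrra overlaps Trmt112 on the opposite strand, which had at most 78 counts in a library.

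Esrrb, the ERR known from pluripotent cells and the inner ear (ENSMUSG00000021255, chr12:86361117-86521628, plus strand), was at 12.0, 5.20 and 10.1 CPM in WT and 10.7, 11.4 and 9.25 CPM in Zeb2 cKO hearts. Its log2 fold change was 0.20 (standard error 0.29, 95% interval -0.49 to 0.89), and -0.080 without WT 2. Esrrg, the ERR of highly oxidative tissues (ENSMUSG00000026610, chr1:187608791-188214885, plus strand), was at 27.3, 18.8 and 27.4 CPM in WT and 28.3, 25.4 and 24.8 CPM in Zeb2 cKO hearts. The genotype difference of Esrrg was 0.09 on the log2 scale (standard error 0.17, 95% interval -0.31 to 0.50), and -0.063 without WT 2. Zeb2 cKO 2 and 3 fell between WT 2 and the other WT hearts, and Zeb2 cKO 1 was the highest of all 6.

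Ppargc1a, the coactivator induced by exercise, cold and fasting (ENSMUSG00000029167, chr5:51454250-51567726, minus strand), was at 49.1, 25.7 and 47.7 CPM in WT and 42.7, 46.4 and 35.8 CPM in Zeb2 cKO hearts. Means were almost equal (40.8 ± 13.1 and 41.6 ± 5.42 CPM, SD, n = 3), and the log2 fold change was 0.03 (standard error 0.26, 95% interval -0.58 to 0.64). It was -0.21 without WT 2 (95% interval -0.50 to 0.08, unadjusted p = 0.1251, edgeR). Ppargc1b, its relative with much the same partners (ENSMUSG00000033871, chr18:61298136-61400431, minus strand), was at 15.9, 5.56 and 13.7 CPM in WT and 12.7, 15.7 and 12.7 CPM in Zeb2 cKO hearts. WT 2 held 37.7% of the mean of the other WT hearts, the deepest gap of the 10. The log2 fold change of Ppargc1b was the highest of the 10 at 0.23 (standard error 0.36, 95% interval -0.62 to 1.08), and -0.11 without WT 2.

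Tfam, the high-mobility-group protein that coats mitochondrial DNA (ENSMUSG00000003923, chr10:71225464-71238280, minus strand), was at 16.6, 12.4 and 17.9 CPM in WT and 16.7, 15.8 and 15.1 CPM in Zeb2 cKO hearts. The group means were 15.6 ± 2.90 and 15.9 ± 0.828 CPM (SD, n = 3), the closest pair in fold terms (log2 fold change 0.03, standard error 0.16, 95% interval -0.35 to 0.40). Without WT 2 it was -0.12.

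**Figure D2:**
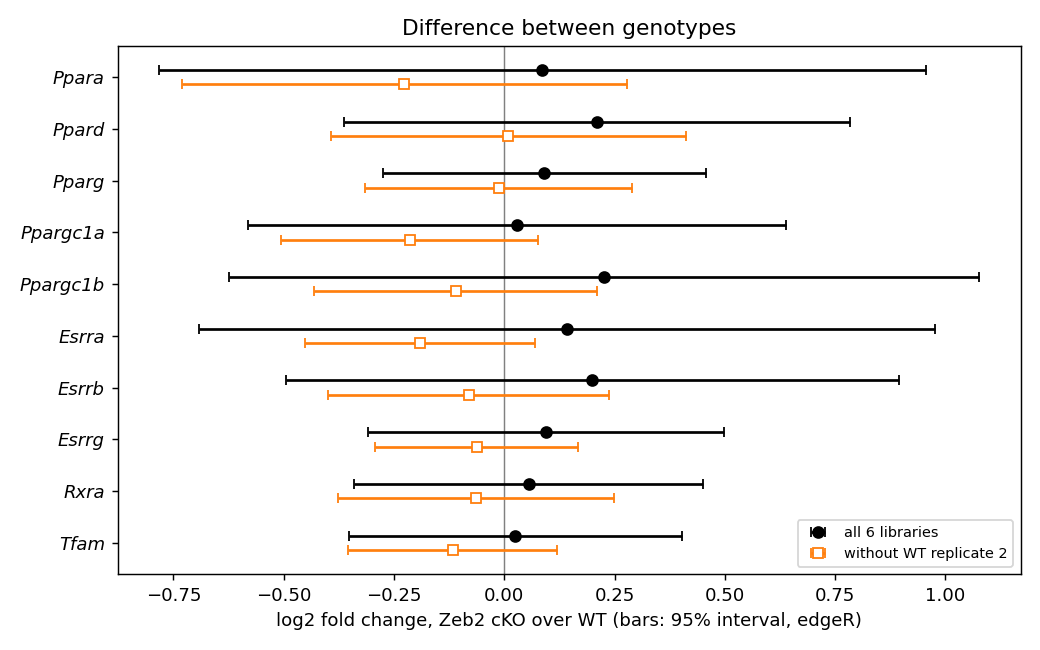
Log2 fold change, Zeb2 cKO over WT, of the 10 regulators with 95% intervals from edgeR, for all 6 libraries (black circles) and without WT replicate 2 (orange squares). Every interval of both series includes 0, and all but Ppard, at 0.0092, cross from above 0 to below it when WT 2 is left out.

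To compare levels between genes, CPM were divided by the length of the joined exons. Esrra (6.31 ± 1.82 CPM per kb, mean ± SD of 6 libraries) and Ppargc1a (6.25 ± 1.36 CPM per kb) were highest and could not be separated by this length, Esrra being the higher in 3 of the 6 libraries. Rxra (5.13 ± 0.709 CPM per kb) and Ppara (4.64 ± 1.47 CPM per kb) followed, with Rxra above Ppara in 4 libraries. Esrrg stood at 4.08 ± 0.558 CPM per kb and was above Tfam (3.55 ± 0.431 CPM per kb) in all 6. Tfam in turn exceeded Ppargc1b in 4 libraries. Ppargc1b was at 3.18 ± 0.942 CPM per kb and lay above Pparg in 5 of the 6 libraries. Pparg (1.71 ± 0.179 CPM per kb) and Esrrb (1.61 ± 0.402 CPM per kb) did not differ beyond their spread, and Ppard was lowest, at 0.682 ± 0.146 CPM per kb, below Esrrb in all 6 libraries. Ppargc1a was above Rxra in 5 libraries and Ppara above Esrrg in 4. The ranks were the same with the length of the longest transcript, but the means of Esrra and Ppargc1a then lay further apart (11.1 and 6.38 CPM per kb). Counts behind these levels ran from 146 to 2137 per gene and library, with those of Ppard and Pparg at the low end. Of the longest transcripts of the 10, only those of Ppargc1a (1.18%) and Esrra (3.21%) had a stretch of 75 bases or more at 95% identity with another gene.

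Within the PPAR family, Ppara held most of the length-scaled level in every library, 70.7, 55.6 and 67.2% in WT 1, 2 and 3 and 72.3, 66.9 and 55.5% in Zeb2 cKO 1, 2 and 3. With the length of the longest transcript it stayed the largest, but at 47.8% in WT 2 and 47.0% in Zeb2 cKO 3. The Ppara share was thus lowest in WT 2 and in Zeb2 cKO 3, in 1 heart of each genotype, and the mean difference between genotypes was 0.38 percentage points (exact permutation test, two-sided p = 1). Leaving out 1 library moved it from -4.05 (without WT 2) to 5.09 (without Zeb2 cKO 3). Ppard held 7.67 to 13.6% and Pparg 19.8 to 33.7% over the 6 libraries, with differences of 0.83 and -1.22 percentage points (exact permutation p = 0.8 for each, two-sided). Among ERRs, Esrra held 56.4, 42.4 and 53.2% in WT and 52.1, 53.3 and 52.8% in Zeb2 cKO hearts. Esrrg held 30.1, 44.8 and 34.0% in WT and 34.5, 32.0 and 34.2% in Zeb2 cKO hearts, while Esrrb stayed between 12.7 and 14.7% in all 6. WT 2 was the library in which Esrrg exceeded Esrra. With the length of the longest transcript this order turned, with 51.8% for Esrra and 35.8% for Esrrg in WT 2. Differences in share between genotypes were 2.09 (Esrra), 0.68 (Esrrb) and -2.76 (Esrrg) percentage points, with exact permutation p-values of 0.9, 0.3 and 0.9 (two-sided). Without WT 2 the differences of Esrra and Esrrg turned to -2.02 and 1.497 percentage points. The ratio of Ppargc1a to Ppargc1b, in CPM per kb, was 1.87, 2.80 and 2.11 in WT and 2.04, 1.79 and 1.70 in Zeb2 cKO hearts (2.26 ± 0.481 against 1.85 ± 0.176, SD, n = 3, exact permutation p = 0.2, two-sided), and the groups overlapped.

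**Figure D3:**
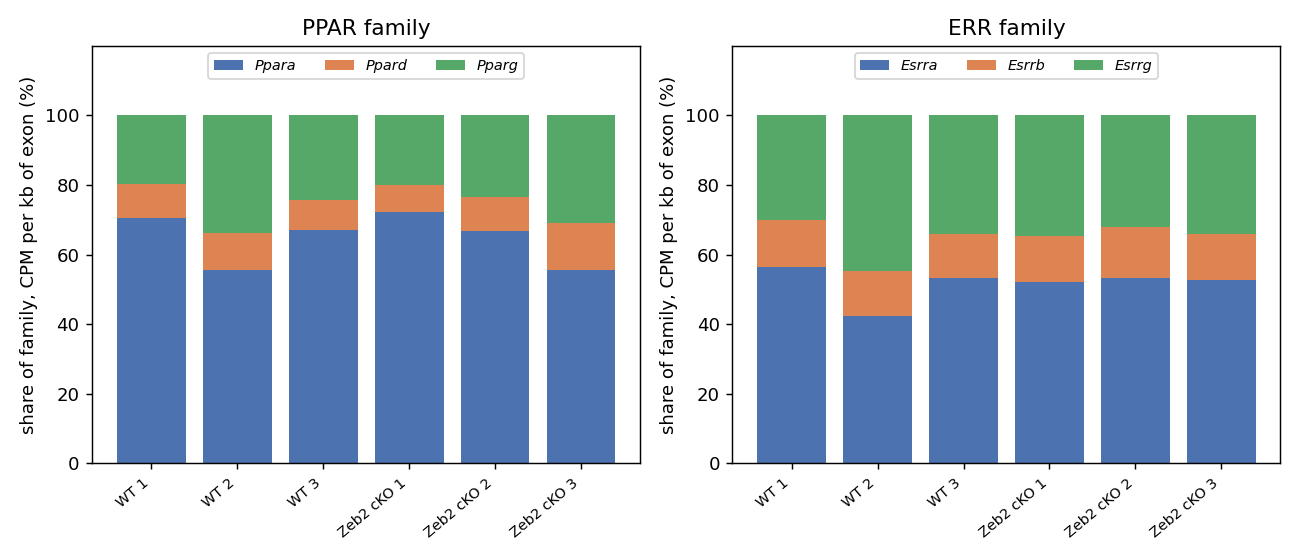
Share of each PPAR (left) and each ERR (right) in the summed CPM per kb of its family, in percent, for each of the 6 libraries. Ppara is the largest PPAR in every bar, and Esrra is the largest ERR in every bar except WT 2, where Esrrg holds 44.8%. With the length of the longest transcript, not drawn, Esrra is the largest ERR in WT 2 too (51.8%).

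Because all 10 regulators and the cardiomyocyte markers were low in the same heart, each regulator was also given as log2 CPM minus the mean log2 CPM of the 12 cardiomyocyte markers. That mean was 0.90 lower in WT 2 than in the other 5 libraries on the log2 scale. On the marker scale, WT 2 was no longer low throughout. It lay below the mean of the other 5 libraries for Ppargc1b (by a log2 difference of -0.43), Esrra (-0.38), Ppara (-0.21) and Esrrb (-0.13), and above it for Pparg (0.57), Rxra (0.55), Tfam (0.49), Esrrg (0.40), Ppard (0.19) and Ppargc1a (0.12). The span over the 6 libraries went from 1.52 on the log2 CPM scale to 0.48 on the marker scale for Esrra, from 1.504 to 0.59 for Ppargc1b, from 1.38 to 0.52 for Ppara, from 1.20 to 0.22 for Esrrb and from 0.93 to 0.26 for Ppargc1a, and widened for Pparg (0.43 to 0.78), Rxra (0.54 to 0.70) and Tfam (0.53 to 0.61). Esrrb and Ppargc1a had the smallest spans on the marker scale, while Pparg, Rxra and Tfam varied more against them than on their own. Zeb2 cKO and WT hearts overlapped for all 10 on this scale. Genotype differences there ran from -0.18 (Tfam, exact permutation p = 0.6, two-sided) to 0.13 (Ppargc1b, exact permutation p = 0.5), and the smallest p was that of Ppargc1a, with a difference of -0.14 (exact permutation p = 0.2). Without WT 2 the differences ran from -0.16 (Ppara) to 0.11 (Ppard), with Tfam at -0.019 and Ppargc1b at -0.013, and those of Pparg, Ppargc1b, Esrra, Esrrg and Rxra had the opposite sign. With Tnnt2 and Actn2 alone as the reference that of Ppargc1a was -0.03 (exact permutation p = 0.8, two-sided).

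**Figure D4:**
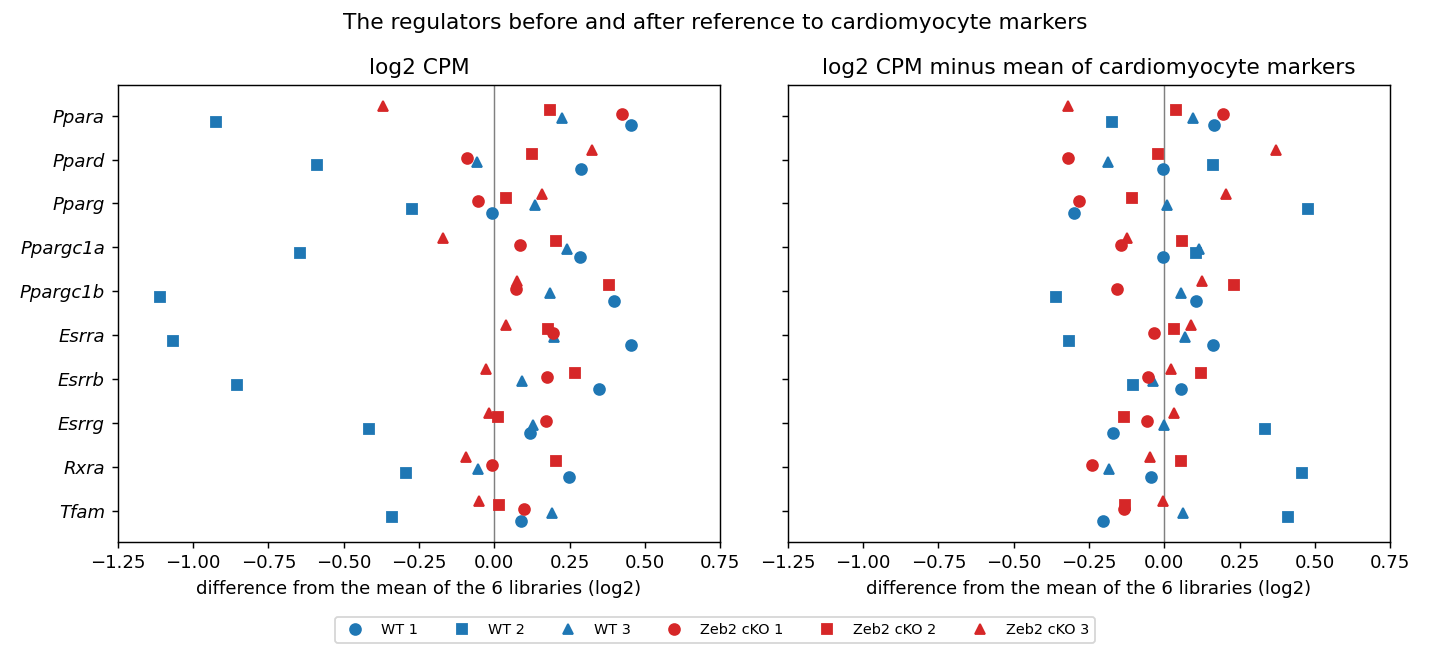
Each library's difference from the mean of the 6 libraries for the 10 regulators, as log2 CPM (left) and as log2 CPM minus the mean of the cardiomyocyte markers (right), on the same axis. WT 2 (blue square) is the leftmost point of every row on the left, down to Ppargc1b and Esrra, and on the right it lies at the far right for Pparg, Esrrg, Rxra and Tfam.

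Partner receptors and coactivators, 12 genes that join PPARs, ERRs or PGC-1 on DNA, gave 0 adjusted and 0 unadjusted calls, with 4 log2 fold changes above 0, 8 below and a median of -0.03 (-0.0069 for all genes tested). Rxrg, the muscle-enriched retinoid X receptor, was at 19.5, 8.98 and 17.1 CPM in WT and 22.9, 22.5 and 12.6 CPM in Zeb2 cKO hearts (log2 fold change 0.35, standard error 0.34). Perm1, a muscle-specific partner of PGC-1 and ERRs, had a log2 fold change of 0.26, and the histone acetyltransferase genes Ep300 and Crebbp had values of -0.16 and -0.17. None of these 4 had groups that did not overlap, and without WT 2 Rxrg was at 0.08 and Perm1 at 0.0013.

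Corepressors and inhibitors (8 genes) gave 0 calls, with 3 values above 0, 5 below and a median of -0.06. Nrip1, which codes for RIP140, had a log2 fold change of -0.22, Hdac3 one of 0.12 and Nr0b2, the receptor without a DNA-binding domain known as SHP, one of 0.29. Without WT 2 these were -0.06, 0.08 and 0.06.

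Kinases and factors acting on PGC-1 (13 genes, among them AMPK, p38 and calcineurin subunits and MEF2 factors) gave 0 calls, with 4 values above 0, 9 below and a median of -0.098. Without WT 2, 6 were above 0 and 7 below, with a median of -0.00097. Camk4, a calcium-dependent kinase of immune cells and neurons, was at 0.292, 4.28 and 0.547 CPM in WT and 0.42, 0.876 and 0.558 CPM in Zeb2 cKO hearts, so that its log2 fold change of -1.48 was carried by WT 2 and turned to 0.55 without it. Mef2c and Mef2d, muscle factors that act on the Ppargc1a promoter, had log2 fold changes of 0.05 and 0.10, and Yy1 one of -0.24 (-0.10 without WT 2). Upstream genes as a whole were not low in WT 2: 2 of the 13 had their lowest level there.

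PPAR target genes (30 genes of lipid uptake, beta-oxidation and fuel choice) gave 0 adjusted calls, with 25 log2 fold changes above 0, 5 below and a median of 0.28. Lowest in WT 2 were 24 of the 30, and without that library the median was 0.05, with 22 above 0 and 8 below. Txnip, which codes for an inhibitor of thioredoxin and of glucose uptake, was the only one of the 30 with an unadjusted p under 0.05. It was at 324, 349 and 306 CPM in WT and 149.9, 212 and 256 CPM in Zeb2 cKO hearts (log2 fold change -0.66, standard error 0.22, unadjusted p = 0.0195, adjusted p = 0.957, edgeR). The 3 Zeb2 cKO hearts were all below the 3 WT hearts, and without WT 2 the value was -0.61. Acot1, a cytosolic acyl-CoA thioesterase, was at 0.982, 0.456 and 0.599 CPM in WT and 1.10, 1.18 and 1.02 CPM in Zeb2 cKO hearts (log2 fold change 0.70, unadjusted p = 0.0638, edgeR). Ehhadh, the peroxisomal bifunctional enzyme, was at 4.99, 2.92 and 4.58 CPM in WT and 5.40, 5.69 and 5.40 CPM in Zeb2 cKO hearts (log2 fold change 0.40, unadjusted p = 0.102, edgeR). Acot1, Ehhadh and the mitochondrial thioesterase gene Acot2 (log2 fold change 0.30, named after its values were seen) were the 3 of the 30 that lay higher in all Zeb2 cKO hearts, beside 3.39% of all genes, without passing the test. Without WT 2 their log2 fold changes were 0.48, 0.20 and 0.08. Acot1 shares 31.6% of its longest transcript with Acot2 at 95% identity or more, so the counting could have split their reads. Txnip shares 21.6% with its antisense partner Gm15441, and the strand setting of the counting is not given in the sources used here.

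ERR target genes (30 genes of the tricarboxylic acid cycle and the respiratory chain) gave 0 adjusted and 0 unadjusted calls. Log2 fold changes were above 0 for 28 and below 0 for 2, with a median of 0.19, and every one of the 30 was lowest in WT 2. Without WT 2, 8 were above 0 and 22 below, with a median of -0.05, as for the regulators themselves. Idh3a, of the isocitrate dehydrogenase that feeds NADH to the chain, was at 161.05, 104.3 and 161.01 CPM in WT and 179, 163 and 158 CPM in Zeb2 cKO hearts (log2 fold change 0.23, standard error 0.20, and 0.05 without WT 2). Cox6a2, for a muscle-type subunit of cytochrome c oxidase, had a log2 fold change of -0.10. Of the 12 cardiomyocyte markers 11 were also lowest in WT 2, and their part in the values of both target lists was not tested.

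Nuclear respiratory factors and the machinery of mitochondrial DNA (15 genes) gave 0 calls, with 8 values above 0, 7 below and a median of 0.05. Without WT 2 the median turned to -0.05, with 6 values above 0, 9 below and 0 adjusted calls. In that comparison 1 gene of the list passed an unadjusted p of 0.05, Polrmt (log2 fold change -0.39, unadjusted p = 0.0204, edgeR). Ssbp1, the single-strand binding protein of mitochondrial DNA, was the 1 gene of the 15 whose groups did not overlap, beside 3.39% (higher) and 2.97% (lower) of all genes. It was at 3.74, 3.78 and 3.88 CPM in WT and 4.68, 4.66 and 3.98 CPM in Zeb2 cKO hearts (log2 fold change 0.22, standard error 0.14, adjusted p = 0.957, edgeR). Here WT 2 was level with the other WT hearts, and the value was 0.22 without it too. Polg2, the accessory subunit of the mitochondrial polymerase, had a log2 fold change of 0.35, Tfb2m, the mitochondrial transcription factor that acts beside TFAM, one of -0.19 (with 48.5% of its transcript shared with Gm1818), and Gabpa, the ETS subunit of NRF-2, one of -0.08.

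Of the 13 mitochondrially encoded mRNAs, which TFAM helps to transcribe, 7 had counts enough for the test and 6 had at most 4 counts in a library. Most of them have near-identical nuclear copies (99.1% of mt-Nd3 and 63.6% of mt-Nd4 by length, for example), so their counts are uncertain. Of the 7 tested, 1 was above 0 and 6 were below, with a median of -0.13 and 0 calls. The median was -0.20 without WT 2 and 0.0064 without WT 3. Without WT 2, 2 of the 7 were lower at an unadjusted p under 0.05 (edgeR), beside 1.04% of all genes, with 0 adjusted calls. These were mt-Nd4 (log2 fold change -0.39, unadjusted p = 0.0475) and mt-Nd6 (-0.49, unadjusted p = 0.0413). mt-Nd4, a complex I subunit, was at 2178, 2108 and 2688 CPM in WT and 1894, 1577 and 2069 CPM in Zeb2 cKO hearts, with groups that did not overlap (log2 fold change -0.33, standard error 0.23, adjusted p = 0.957, edgeR). Groups were apart in this direction for 2.97% of all genes. mt-Nd1, with no such copy found, had a log2 fold change of 0.24 (0.058 without Zeb2 cKO 1), and mt-Nd5 one of -0.18.

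**Figure D5:**
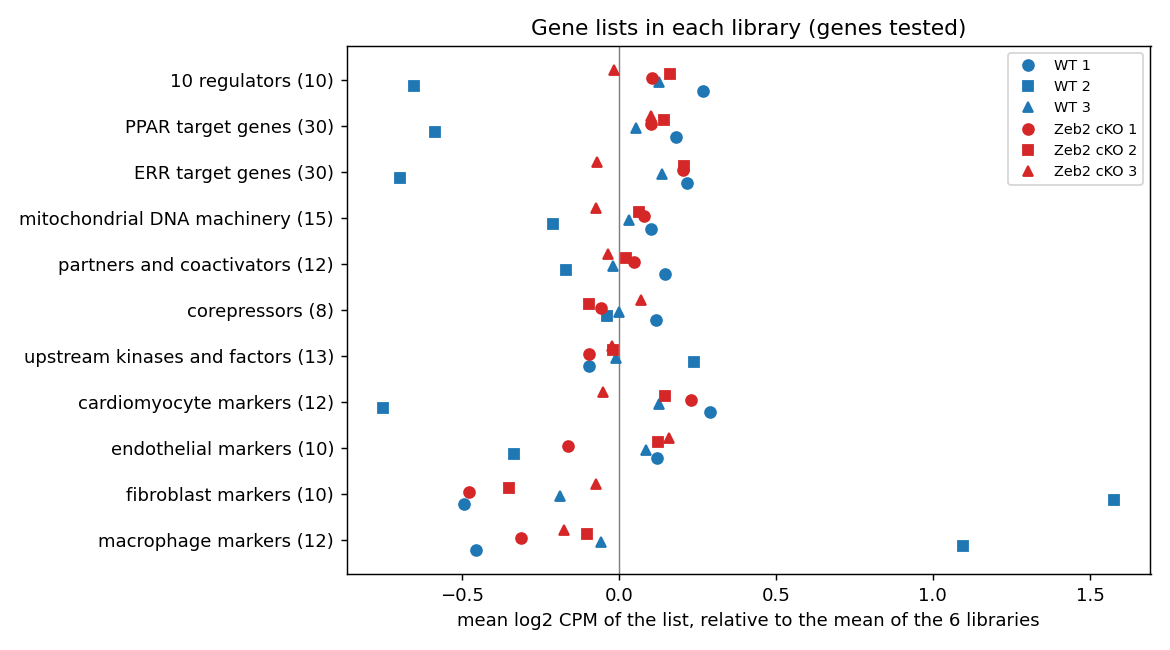
Mean log2 CPM of each gene list in each library, relative to the mean of the 6 libraries, with the number of genes tested in brackets. WT 2 (blue square) is at -0.65 for the 10 regulators, -0.58 for PPAR targets, -0.70 for ERR targets and -0.75 for cardiomyocyte markers, and at 1.58 for fibroblast and 1.10 for macrophage markers.

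Genes with the most similar profile were found by the root-mean-square (RMS) difference of log2 CPM, each gene centred on its own mean over the 6 libraries. Nearest to Esrrg was Mrps7, for a mitochondrial ribosomal protein (RMS difference 0.016), to Esrrb Arhgap20 (0.025), to Tfam R3hcc1l (0.020) and to Esrra Aars2, for the mitochondrial alanyl-tRNA synthetase (0.044). Ppargc1a was closest to Smyd2 (0.044), Ppargc1b to Nrarp (0.064), Rxra to Btbd2 (0.034) and Pparg to Pgap2 (0.034). The nearest gene to Ppard was Gm16425 (0.056), and that to Ppara was Pm20d2 (0.098), the largest of the 10 distances. All 10 profiles hold the same low point in WT 2, which a gene had to share to come near.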

How the data were processed

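Libraries of 3 WT and 3 Zeb2 cKO hearts were grouped and numbered by the sample labels. The authors deposited raw counts per gene; per the methods, stranded single-end reads of RNA depleted of ribosomal RNA were aligned and counted on Gencode M4 with the STAR workflow. The STAR version, the treatment of multimapping reads and the strand setting are not given in the sources used here. The table had 0 columns without a sample. Symbols, positions and exon lengths came from Gencode M21 (GRCm38) with identifiers as the key, which gave a symbol to 14573 of the 14746 genes in the test.

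Counts were normalized by TMM, filtered with filterByExpr and tested with glmQLFit and glmQLFTest (edgeR 4.0.16, R 4.3.3) with genotype as the factor, on all 6 libraries. The prior count behind log2 fold changes was 0.125. Adjustment of p-values was by the Benjamini-Hochberg method over all genes tested. Log2 CPM used a prior count of 2. The study used DESeq, and DESeq2 1.42.0 was run as an alternative. Steps were tested on simulated data. Near-identical copies were stretches of at least 75 bases at 95% identity between transcripts (BLAST).

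The regulators and gene lists were chosen with earlier results of these data known. From each list of related genes, the 2 with the smallest unadjusted p above 0 and the 2 below 0 were named, and for each regulator the gene nearest in profile; a few of the genes so named are counted in their lists but not reported here. Same-numbered mice of the groups are different animals and were not paired. The precision is set by 3 mice per group; the common coefficient of biological variation was 0.243.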

Additional observations from a re-analysis of the deposited data

How the results depend on the processing

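No regulator passed an adjusted p of 0.05 under any alternative tried, in scaling, filter, test, mitochondrial genes or libraries left out, and 0 genes of the whole table did so in edgeR (280 at an unadjusted p under 0.05), whereas DESeq2 called 2 genes, Slc46a2 and Mrap2, and 361 at an unadjusted p under 0.05. The count at an unadjusted p under 0.05 was 600 without the filter and between 123 (without Zeb2 cKO 1) and 1114 (without WT 1) with a library left out. Leaving out 1 library at a time moved the log2 fold change of Ppara between -0.23 and 0.36, of Ppard between 0.0092 and 0.43, of Pparg between -0.012 and 0.19, of Ppargc1a between -0.21 and 0.18, of Ppargc1b between -0.11 and 0.51, of Esrra between -0.19 and 0.44, of Esrrb between -0.080 and 0.45, of Esrrg between -0.063 and 0.18, of Rxra between -0.064 and 0.21, and of Tfam between -0.12 and 0.13. Each low end came from leaving out WT 2. Ppara (-0.097) and Tfam (-0.014) were also below 0 without Zeb2 cKO 1, and Ppargc1a (-0.055) and Rxra (-0.033) without Zeb2 cKO 2. Among other genes the ranges crossed 0 for Mef2d (-0.097 to 0.29), Camk4 (-1.98 to 0.55), Cox6a2 (-0.26 to 0.054) and mt-Nd5 (-0.35 to 0.0064). On the scale relative to cardiomyocyte markers, the differences of Ppara and Esrrg turned from -0.058 and -0.11 to 0.050 and 0.0015 with Tnnt2 and Actn2 alone as the reference. The causes of these shifts were not tested.

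With the replicate number as a block, the log2 fold changes of the 10 regulators ran from 0.04 to 0.33 (adjusted p of at least 0.9994, edgeR) and no call changed. Same-numbered mice are different animals. Deviations from the group means correlated at 0.088, -0.14 and -0.087 for numbers 1, 2 and 3. With 3 mice per group these values cannot decide whether same-numbered libraries shared a batch. Every regulator had 146 counts or more in each library, and a limit set by depth was not tested. The 95% intervals give the changes that 3 mice per group did not exclude, and they differed by gene. Their lowest limit was -0.78 (Ppara) and their highest 1.08 (Ppargc1b), while that of Tfam ran from -0.35 to 0.40. The smallest change that could be detected was not calculated.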

Other observations

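The PPAR targets Pdk4, Ucp3 and Angptl4, picked after their values were seen, varied within each genotype, whereas others of the same list, such as Cpt1a (34.4 to 42.2 CPM in WT and 29.8 to 41.5 CPM in Zeb2 cKO hearts), varied less. Pdk4, the kinase that shuts off pyruvate oxidation, was at 221, 73.0 and 174 CPM in WT 1, 2 and 3 and at 106, 117 and 292 CPM in Zeb2 cKO 1, 2 and 3. Ucp3, a mitochondrial carrier of oxidative muscle, was at 17.8, 3.71 and 11.1 CPM in WT and 11.1, 13.3 and 20.01 CPM in Zeb2 cKO hearts. Angptl4, a secreted inhibitor of lipoprotein lipase, was at 7.04, 13.3 and 7.50 CPM in WT and 2.42, 5.19 and 17.7 CPM in Zeb2 cKO hearts. All 3 were highest in Zeb2 cKO 3, where Ppara was lower than in every heart except WT 2. Ppard and Pparg were also highest there, but narrowly (6.29 against 6.13 CPM in WT 1, and 5.60 against 5.52 CPM in WT 3). Other PPAR targets were lower in Zeb2 cKO 3 than in Zeb2 cKO 1 and 2, among them Acadm (179 against 265 and 288 CPM) and Ech1 (229 against 348 and 364 CPM). A link between these targets and the level of a PPAR was not tested. Log2 fold changes of Pdk4, Ucp3 and Angptl4 between genotypes were 0.14, 0.45 and -0.13 (standard errors 0.52, 0.52 and 0.68), and no group difference passed a test.

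Adipocyte markers of few counts, Adipoq, Plin1, Cidec, Adig and Retn, lay higher in every Zeb2 cKO heart, while Fabp4, Acvr1c, Cfd, Pck1, Lep and Ucp1 did not. Of those that lay higher only Adig had counts enough for the test. It was 1 of the 3 adipocyte markers tested, beside 3.39% of all genes tested whose groups did not overlap in this direction. Adig had 4, 3 and 3 counts in WT and 20, 10 and 15 counts in Zeb2 cKO hearts, and Cidec, a lipid droplet protein of fat cells, had 2, 3 and 3 against 23, 10 and 10 counts. Adig gave a log2 fold change of 1.83 with a standard error of 0.41 (edgeR's adjusted p = 0.957). Pparg was at 4.84 CPM in Zeb2 cKO 1, where Cidec and Adig were highest, and at 5.60 CPM in Zeb2 cKO 3. A link between these markers, with their few counts, and the Pparg level was not tested.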
